A study of Homo sapiens with 65 samples.

Results

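Expression of 7 genes of the heart's pacemaking, repolarisation and conduction machinery (HCN4, KCNH2, KCNQ1, KCNJ3, GJA5, KCNAB1 and POPDC2) was followed across 16 groups of human cardioids. They are 7 of the 58735 genes in the deposited count table, and all 7 were found there by gene ID. The list was drawn up with results of these data known: KCNAB1 was included as higher, and POPDC2 as lower, in HAS2 knockout than in wild-type cardioids at day 4.5. For the 7 genes that comparison is therefore described below without a test.

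Cardioids are self-organising, heart-like aggregates grown from pluripotent stem cells. All 65 libraries came from derivatives of the induced pluripotent line WTC-11, differentiated towards left-ventricular identity in a medium series that supplied FGF2, Activin A, BMP4, the kinase inhibitors LY294002 and CHIR99021 and later insulin, retinoic acid and the WNT inhibitor C59. RNA of 8 pooled cardioids made 1 library, read from the 3′ ends of transcripts (QuantSeq FWD). In the genotype arm, wild-type cardioids (WT, 4 line names: WT, WT_TU, cl43_WT_UT and TNT2) were set against cardioids labelled HAS2 knockout (KO, 4 clones: cl4, cl14, cl46 and cl51). The WT groups held 5 libraries on day 1.5, 6 on days 2.5 and 4.5 each, and 3 on day 7.5, and the KO groups 6, 6, 6 and 3. Several libraries are repeats of 1 line or clone, marked R1 to R3. In the enzyme arm, 3 lines named TNNI1, WT and TNNT2 (replicates 1, 2 and 3) gave 1 library each to untreated cardioids (UT) and to cardioids kept in hyaluronidase from day 1.5 (HAse1.5) at days 2.5, 4.5 and 7.5, and from day 2.5 (HAse2.5) at days 4.5 and 7.5. HAS2 makes hyaluronan, a sugar polymer of the extracellular matrix, and hyaluronidase digests it.

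A heartbeat begins where cells carry the hyperpolarisation-activated current of HCN channels, spreads through connexin channels from cell to cell, and ends when potassium channels repolarise the membrane. HCN4 is the main pacemaker channel of the heart and is widely expressed in the early heart tube before it becomes limited to the conduction system. KCNH2 (the hERG channel) and KCNQ1 carry the rapid and the slow delayed rectifier currents, KCNJ3 is a subunit of the acetylcholine-activated channel of atrial and nodal cells, KCNAB1 is an auxiliary beta subunit of voltage-gated potassium channels, GJA5 is connexin 40 of atrial and conduction tissue, and POPDC2 is a cyclic AMP-binding Popeye membrane protein linked to sinus node function.

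Libraries held 831062 to 3574843 counts (median 1570954), and 3 counts, used here as the floor of detection in a library, were worth 0.839 to 3.61 CPM (counts scaled to the library total). Floors and counting intervals cover counting error only, since amplified reads without molecular identifiers are not independent molecules. The labels speak of 3 or more biological replicates without saying which libraries came from separate cultures, so p-values measure the spread between these libraries, which may in part be technical. The HAS2 transcript overlapped between WT and KO libraries on every day, and a count at the 3′ end checks no edit elsewhere in a gene. Library numbers of the genotype arm ran in 3 blocks (A with WT_R1, WT_TU_R1 and cl4_R1, B with the R2 libraries of those names, C with the rest). At day 7.5 the WT libraries (WT_R1, WT_R2 and WT_TU_R2) stood in blocks A and B and the KO libraries (cl4_R2, cl4_R3 and cl14_R1) in B and C. Clones cl46 and cl51 and lines cl43_WT_UT and TNT2 had no library on that day. A KO difference at day 7.5 and that of an earlier day thus rest on different sets of lines and clones. All 10 cardiomyocyte markers (TNNT2, TNNI1, TNNC1, MYH6, MYH7, MYL7, MYL4, ACTN2, TTN and ACTC1) were detected in every group of days 4.5 and 7.5, while MYH7 was at 0 in every library of day 2.5.

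The promoters of HCN4, KCNH2 and KCNAB1 are shown first, since these genes rose or fell at different steps of the time course. RefSeq (GRCh38.p14) gives 1 start for HCN4 and KCNJ3, 2 for GJA5 and 5 each for KCNH2 and KCNAB1. KCNQ1 and POPDC2 were not matched. Reads from the 3′ end do not tell which start was used. The 250 bases before a start are given 5′ to 3′ on the gene's strand, with motif matches in capitals.
HCN4 (chr15:73368959-73369208, minus strand): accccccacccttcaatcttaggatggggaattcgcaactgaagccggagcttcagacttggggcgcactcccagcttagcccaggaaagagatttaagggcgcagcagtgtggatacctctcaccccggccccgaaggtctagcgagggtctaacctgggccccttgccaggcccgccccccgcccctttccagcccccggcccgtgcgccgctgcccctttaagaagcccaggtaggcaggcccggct
KCNH2, first listed start (chr7:150978322-150978571, minus strand): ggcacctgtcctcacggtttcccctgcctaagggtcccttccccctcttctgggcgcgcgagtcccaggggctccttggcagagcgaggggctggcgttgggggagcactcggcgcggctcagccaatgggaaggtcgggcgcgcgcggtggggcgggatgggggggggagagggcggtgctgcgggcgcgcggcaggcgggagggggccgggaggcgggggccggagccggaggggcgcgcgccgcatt
KCNAB1, first listed start (chr3:156120298-156120547, plus strand): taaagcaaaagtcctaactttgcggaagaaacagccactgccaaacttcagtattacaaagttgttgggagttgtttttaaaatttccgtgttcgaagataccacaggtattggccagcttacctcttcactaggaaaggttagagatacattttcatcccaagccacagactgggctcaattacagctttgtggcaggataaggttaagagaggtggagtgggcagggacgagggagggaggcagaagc
KCNAB1, start 4 as listed (chr3:156290737-156290986, plus strand): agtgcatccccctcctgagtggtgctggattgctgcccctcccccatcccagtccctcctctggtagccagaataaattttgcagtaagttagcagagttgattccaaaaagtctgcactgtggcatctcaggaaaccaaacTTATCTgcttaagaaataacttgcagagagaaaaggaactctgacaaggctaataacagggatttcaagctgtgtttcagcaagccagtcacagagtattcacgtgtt

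These windows were searched on both strands for the cores of 6 motifs bound by cardiac factors. The core of the GATA family of zinc finger factors was AGATAA. For T-box factors such as TBX5 the letters searched were AGGTGT. Homeodomain factors of the NK2 family, NKX2-5 among them, were represented by CAAGTG. The TEAD factors, which work with YAP, were represented by GGAATG. A MEF2 site and the SRF CArG box completed the set. The capitals in the KCNAB1 window mark the GATA core on the opposite strand, 108 bases before the start. The overlapping window of the fifth listed KCNAB1 start holds the same match, and a GJA5 window holds a T-box and a TEAD core. The other windows of the matched genes, those of HCN4, KCNH2 and KCNJ3 included, hold none of these letters. Of 35116 RefSeq windows of the same length, 9.17% hold the GATA core, 9.57% the T-box core, 9.5% the NK2 core, 11.9% the TEAD core, 0.134% the MEF2 core and 0.0313% the SRF core. A match is a description of the sequence and not a measured binding site.

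The 7 genes did not switch on together. KCNAB1 appeared at day 2.5 and was gone from WT by day 4.5, KCNH2 rose from day 1.5 to day 4.5 in both steps, HCN4, KCNQ1, KCNJ3 and POPDC2 were higher at day 4.5 than at day 2.5, and GJA5 was at its highest in WT at day 7.5. By edgeR's quasi-likelihood test (adjusted p under 0.05 over all genes tested, here termed called), 3 of 7 genes were higher at day 2.5 than at day 1.5 in WT, against 30.1% of all 13797 genes called in either direction and 15% called higher. KCNAB1, 1 of the 3, passed the filter on low counts only with its day 2.5 libraries. From day 2.5 to day 4.5, HCN4, KCNH2, KCNQ1 and KCNJ3 were called higher, 4 of the 5 genes not picked on day 4.5. Of all genes 34.5% were called in either direction and 18.6% higher. In a fit of only these groups KCNQ1 and KCNJ3 were no longer called. KCNAB1 and POPDC2 were picked partly on the WT libraries of day 4.5, so their own WT steps to and from that day are given as values. From day 4.5 to day 7.5, 1 of the 5 genes not picked on day 4.5 (GJA5) was called higher. GJA5 passed the filter on low counts only through libraries of day 7.5, so its call is a description. Of all genes 2.7% were called in either direction and 1.25% higher. In UT libraries 5 of the 7 genes passed the filter on low counts (not KCNQ1 and GJA5, and KCNAB1 only with its day 2.5 libraries). Of these, 4 were higher and 1 lower at day 4.5 than at day 2.5 (23% of all 12748 genes called), and none was called between days 4.5 and 7.5 (6.39%; 24.5% of all genes at an unadjusted p under 0.05, and 1235 genes by DESeq2).

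**Figure D1:**
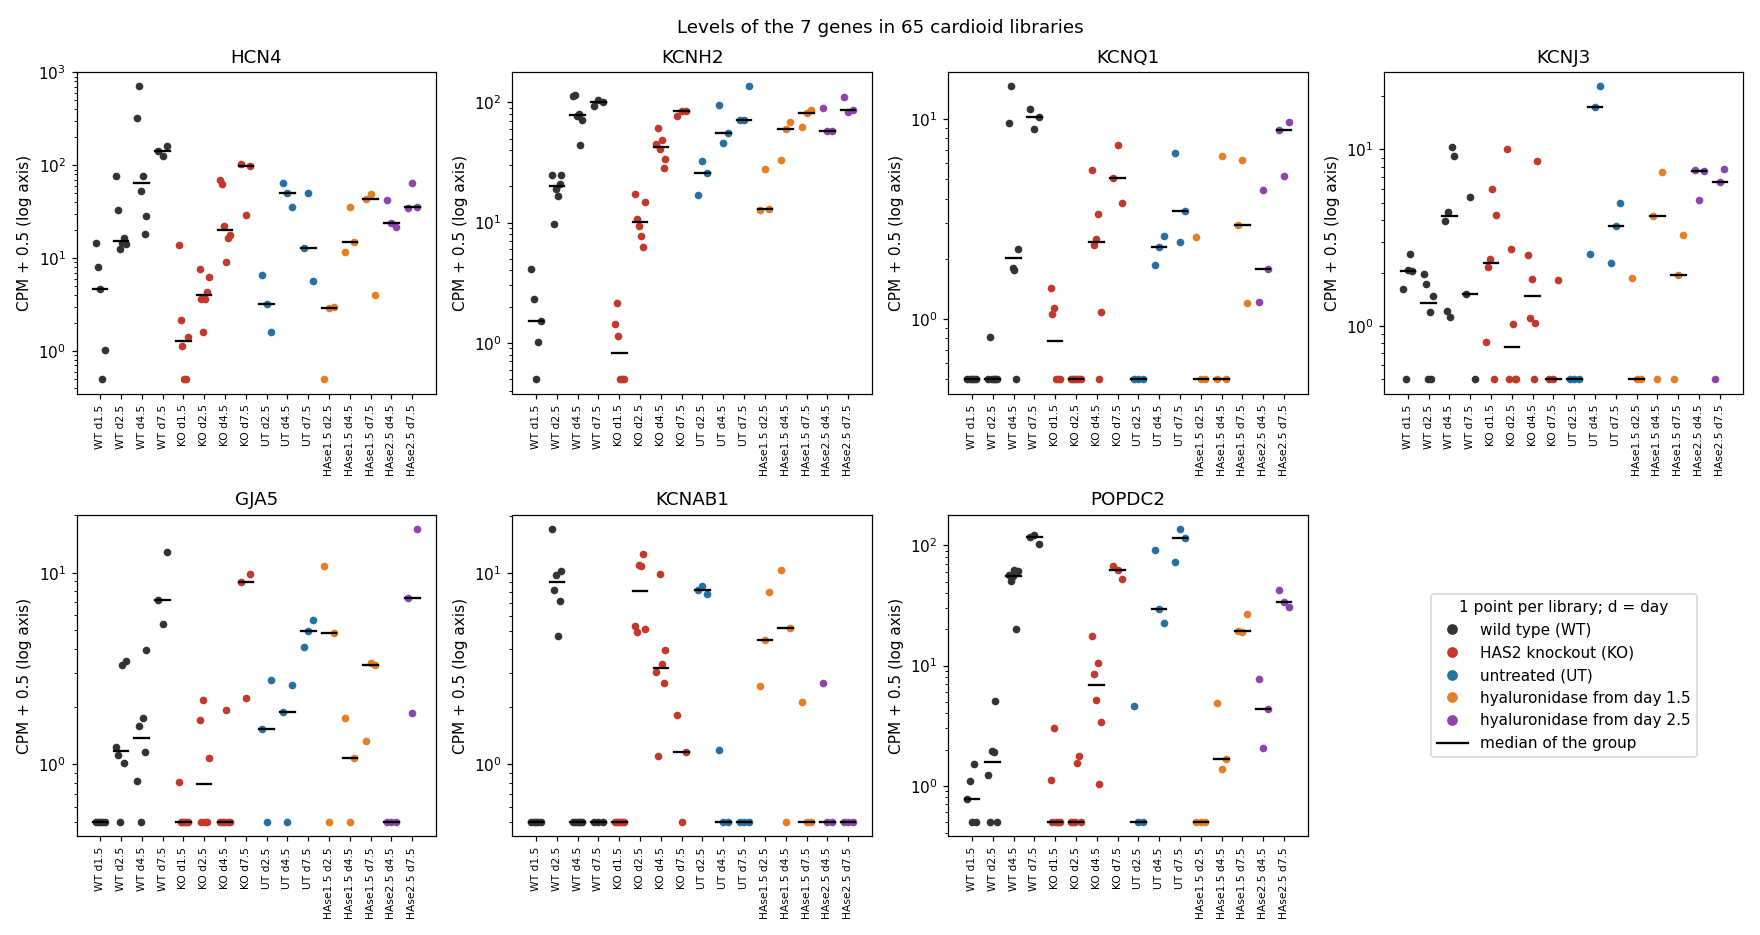
Level of each of the 7 genes (CPM + 0.5, log axis) in each of the 65 libraries, by group, with the median of the group as a bar. KCNAB1 is at 0 in all 6 WT libraries at day 4.5 and above 0 in all 6 KO libraries, and POPDC2 of HAse1.5 and HAse2.5 lies below that of untreated libraries at days 4.5 and 7.5.

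HCN4 (ENSG00000138622, chromosome 15, 73319859 to 73369264 on GRCh38, minus strand), the pacemaker channel gene, was higher at day 4.5 than at day 2.5 in both arms. In WT at day 1.5 its levels were 14.3 CPM in WT_R1, 7.52 in WT_TU_R1, 4.18 in WT_R2, 0 in cl43_WT_UT and 0.517 in TNT2. In WT at day 2.5 they ran from 12.1 to 76.0 CPM (median 14.9, n = 6), and at day 4.5 from 17.8 to 706 CPM (median 63.9, n = 6). The ranges of days 2.5 and 4.5 overlapped, although day 4.5 was higher for each of the 6 library names (log2 fold change 2.91, SE 0.74, edgeR adjusted p 0.00186). In the UT libraries HCN4 went from 6.13, 2.68 and 1.12 CPM at day 2.5 to 64.8, 49.7 and 35.5 CPM at day 4.5, and these groups did not overlap (42.6% of all genes did not; log2 fold change 3.71, SE 0.86, edgeR adjusted p 0.00361). At day 7.5 the UT levels were 12.5, 50.4 and 5.19 CPM, so the line WT was about level with day 4.5 while TNNI1 and TNNT2 were lower. The step from day 4.5 to day 7.5 was not called in UT (log2 fold change −1.01, SE 0.70, edgeR adjusted p 0.388) or in WT (−0.50, SE 0.85, adjusted p 0.863). The WT libraries of day 7.5 held 142, 125 and 162 CPM.

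HCN4 differed between library-number blocks in WT at day 4.5. At day 4.5 the block A libraries WT_R1 and WT_TU_R1 held 325 and 706 CPM, the block B libraries of the same line names held 52.1 and 75.8 CPM, and the block C libraries cl43_WT_UT and TNT2 held 17.8 and 28.3 CPM. Since block C held other WT lines than blocks A and B, block and line cannot be told apart for it. At day 2.5 block A again stood highest (76.0 and 32.4 CPM), while blocks B and C lay close together, at 12.1 to 14.0 and 13.8 to 15.8 CPM. At day 7.5 the order was not seen: block A (142 CPM) lay between the block B libraries (125 and 162 CPM). The summed cardiomyocyte markers did not have this order at day 4.5: they came to 33140 to 35183 CPM in block A, 58416 to 63060 in block B and 35850 to 48789 in block C. The genes whose log2 CPM was most like that of HCN4 over the 65 libraries were ACOT2 (r = 0.93), RBPMS (0.92) and MGST3 (0.91), and they had the same order over the blocks in WT at day 4.5. ACOT2 held 87.8 to 98.2 CPM in block A, 26.9 to 30.0 in block B and 15.8 to 22.5 in block C. All these correlations run across libraries that share day and block, and are given as a description.

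**Figure D2:**
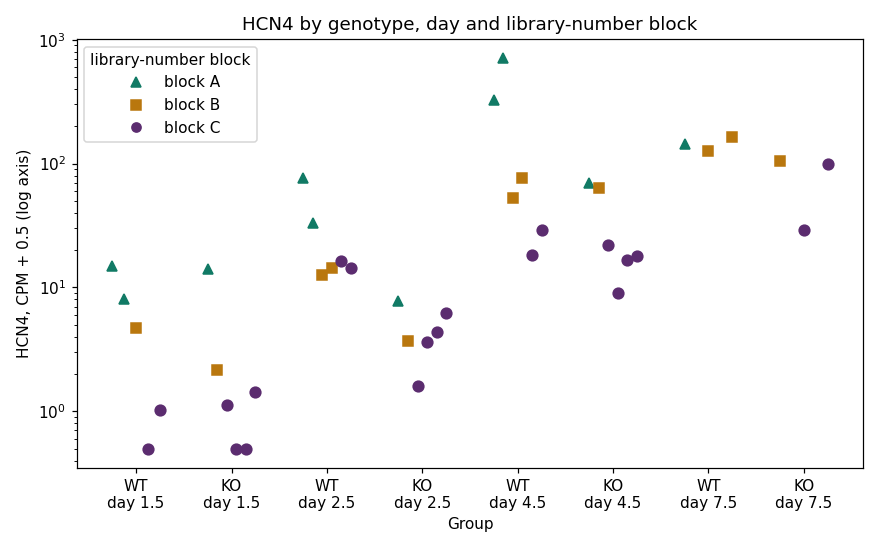
HCN4 (CPM + 0.5, log axis) in the genotype arm, by genotype and day, 1 point per library, with the symbol giving the library-number block. At day 4.5 the WT libraries of block A (325 and 706 CPM) stand above those of blocks B and C, and at day 7.5 WT and KO share only block B.

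HCN4 was lower in KO than in WT libraries at day 2.5, without passing the test. The KO libraries held 1.11 to 7.22 CPM (median 3.51, n = 6), all below the lowest WT library at 12.1 CPM. The log2 fold change was −2.91 (SE 0.91, edgeR adjusted p 0.131), and in a fit of only these 12 libraries the same difference passed (−2.90, adjusted p 0.0118). None of the 7 genes was called at day 2.5 (0.993% of all genes were, and 10.5% had an unadjusted p under 0.05, with 232 genes by DESeq2), and HCN4 was the 1 gene of the 7 whose groups did not overlap, against 1.82% of all genes. At day 4.5, the day of the rule, KO libraries held 8.54 to 68.6 CPM (median 19.4, n = 6) and overlapped WT. Within block A the KO library (68.6 CPM) lay below both WT libraries, within block B the KO library (62.9 CPM) lay between them, and within block C the 4 KO libraries (8.54 to 21.5 CPM) ran from below to between the WT values. The log2 fold change was −2.70, and −1.38 with the block as a term. At day 7.5 the KO libraries held 104, 28.8 and 98.2 CPM, all below WT, and with the block as a term the log2 fold change went from −0.94 (SE 0.99) to 0.24, neither past the threshold (edgeR adjusted p 1 and 0.973).

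No change of HCN4 with hyaluronidase passed the test. At day 4.5 HAse1.5 libraries held 11.2, 35.4 and 14.6 CPM and HAse2.5 libraries 41.7, 23.4 and 21.2 CPM, against 64.8, 49.7 and 35.5 in UT. With either start of the enzyme, all 3 lines had less HCN4 than their own UT library. HCN4 and POPDC2, 2 of 7 genes, lay below UT without overlap in HAse1.5, as did 8.87% of all genes, and POPDC2 alone in HAse2.5 (7.43%). For HCN4 the groups all but touched, at 35.43 CPM in the highest HAse1.5 library and 35.47 CPM in the lowest UT library. The log2 fold changes were −1.41 (95% interval −2.89 to 0.07, edgeR adjusted p 0.397) and −0.83 (−2.27 to 0.60, adjusted p 0.959). At day 7.5 the values were 42.4, 48.2 and 3.49 CPM in HAse1.5 and 34.6, 63.7 and 35.4 CPM in HAse2.5, and the HAse2.5 library was higher than the UT library in 3 of 3 lines. These differences were 0.32 (−1.17 to 1.80) and 0.89 (−0.57 to 2.34) on the log2 scale and were not called (edgeR adjusted p 0.876 and 0.593).

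KCNH2 (ENSG00000055118, chromosome 7, 150944961 to 150978315, minus strand), the hERG channel gene, was called higher at both early steps in WT. In WT its levels were 3.64, 1.81, 0, 0.513 and 1.03 CPM at day 1.5, 9.25 to 24.6 CPM at day 2.5 (median 19.5, n = 6), 43.5 to 115 CPM at day 4.5 (median 77.9, n = 6) and 92.9, 103 and 100.2 CPM at day 7.5. No WT library of day 2.5 overlapped day 1.5 or day 4.5 (16.2% and 17.7% of all genes had no overlap). Both steps were called, at 3.26 (SE 0.43, edgeR adjusted p 1.14e-07) and 2.20 (SE 0.32, adjusted p 4.26e-07), and the step to day 7.5 was not (0.26, SE 0.36, adjusted p 0.824). UT libraries went from 16.3, 32.2 and 25.2 CPM at day 2.5 to 94.2, 45.3 and 54.9 CPM at day 4.5 (log2 fold change 1.31, SE 0.38, edgeR adjusted p 0.0137). That call was lost without the TNNI1 library of either day (adjusted p 0.0758 and 0.116).

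In KO libraries KCNH2 had lower medians than in WT on every day, and the difference was not called at days 1.5, 2.5 and 7.5. At day 1.5 they held 0 to 1.66 CPM (log2 fold change −1.47, SE 0.65, edgeR adjusted p 0.937). At day 2.5 KO libraries held 5.74 to 16.8 CPM (median 9.54, n = 6), overlapping WT (log2 fold change −0.92, 95% interval −1.61 to −0.23, edgeR adjusted p 0.262). At day 4.5 they held 28.0 to 60.5 CPM (median 42.2, n = 6) against 43.5 to 115 CPM, with −1.06 as the log2 fold change, given as a description. At day 7.5 they held 76.8, 84.0 and 83.6 CPM, all below WT (−0.31, −1.16 to 0.53, edgeR adjusted p 1). The change of the KO effect between days 2.5 and 7.5 was itself not called (0.60, SE 0.54, edgeR adjusted p 1; 0 of 7 genes, 0.268% of all genes, 6.16% at an unadjusted p under 0.05 and 65 genes by DESeq2).

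In the enzyme arm no change of KCNH2 was called, while 9 of 10 cardiomyocyte markers were called lower in HAse1.5 at day 4.5. Of all genes 3.48% were called there in either direction. At day 4.5 HAse1.5 libraries held 32.9, 59.6 and 68.7 CPM and HAse2.5 libraries 89.1, 57.8 and 57.1 CPM. The log2 fold changes against UT were −0.36 (95% interval −1.10 to 0.37, edgeR adjusted p 0.767) and 0.03 (−0.70 to 0.75, adjusted p 1). At day 7.5 they were −0.40 (−1.12 to 0.32, adjusted p 0.611) and −0.05 (−0.76 to 0.66, adjusted p 0.964). The summed cardiomyocyte markers at day 4.5 were 25851 to 50752 CPM in UT, 5175 to 19546 in HAse1.5 and 18869 to 33707 in HAse2.5. Set against those markers, a ratio chosen after the data had been seen, KCNH2 had 14.3 to 21.3 counts per 10000 marker counts in UT and 30.5 to 76.6 in HAse1.5, which did not overlap. HCN4 per marker count did not overlap either, at 12.8 to 15.7 in UT and 16.2 to 21.6 in HAse1.5. In HAse2.5 the ratio was lower than in UT for HCN4, at 8.51 to 12.4 without overlap, and overlapped UT for KCNH2, at 21.0 to 30.2. Since the marker sum was lower in HAse1.5 than in UT, a gene of steady CPM is higher in this ratio there too. The share of all genes whose groups separate in the ratio was not computed. The part of the lower cardiomyocyte markers in the KCNH2 and HCN4 results was not tested. Over the 65 libraries the genes most like KCNH2 were DOK4 (r = 0.97), MAP1A (0.96) and FILIP1 (0.95), but within days 4.5 and 7.5 (36 libraries) these fell to 0.60, 0.36 and 0.40.

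KCNQ1 (ENSG00000053918, chromosome 11, 2444684 to 2849110, plus strand), the slow delayed rectifier gene, stayed close to the floor: 28 of 65 libraries had none and the highest count was 39. Its span holds the antisense transcript KCNQ1OT1 (median 515 CPM over all libraries), and the strand setting of the counting is not given in the sources used here, so the 2 sets of reads may not be separable. In WT it had 1 count in 6 libraries at day 2.5, then 9.06, 14.0, 1.30, 1.25, 0 and 1.73 CPM at day 4.5 in WT_R1, WT_TU_R1, WT_R2, WT_TU_R2, cl43_WT_UT and TNT2. The 2 highest libraries were those of block A, as for HCN4. The ratio of day 4.5 to day 2.5 was 77.6 (counting interval 13.5 to 3107, edgeR adjusted p 0.000144). KCNQ1OT1 had medians of 420 and 469 CPM on these 2 days. At day 7.5 KCNQ1 held 10.8, 8.37 and 9.70 CPM in WT and 4.56, 6.91 and 3.32 CPM in KO, without overlap and without passing the test (log2 fold change −0.99, SE 0.93, edgeR adjusted p 1). In the enzyme arm it did not pass the filter on low counts, and its highest levels there were the 8.30, 4.70 and 9.17 CPM of HAse2.5 at day 7.5 against 6.25, 1.91 and 2.97 in UT.

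KCNJ3 (ENSG00000162989, chromosome 2, 154698299 to 154858352, plus strand), the acetylcholine-activated channel subunit, was low throughout, with at most 32 counts in a library. In WT it had 0 to 1.47 CPM at day 2.5 (n = 6) and 0.626 to 9.89 CPM at day 4.5 (median 3.67, n = 6), with the highest values in the block C libraries cl43_WT_UT and TNT2. The step was just past the threshold (log2 fold change 2.38, SE 0.94, edgeR adjusted p 0.0458) and was lost without any 1 of 9 libraries, with adjusted p up to 0.108 (without cl43_WT_UT at day 4.5). In UT, KCNJ3 was at 0 in all 3 libraries at day 2.5 and at 2.05, 16.9 and 22.3 CPM at day 4.5, at least 6.98-fold higher (edgeR adjusted p 0.00249). It then stood at 1.78, 3.19 and 4.45 CPM at day 7.5, a step that was not called (adjusted p 0.217). HAse1.5 libraries held 3.72, 0 and 6.98 CPM at day 4.5 (log2 fold change −1.91, 95% interval −3.83 to 0.02, edgeR adjusted p 0.368), and HAse2.5 libraries 7.19, 4.68 and 7.05 CPM. In KO at day 4.5 it had 0 to 8.11 CPM, with 14 of the 22 counts in cl51_R1. The gene most like KCNJ3 was CCDC3 (r = 0.64), a looser likeness than for the other genes.

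GJA5 (ENSG00000265107, chromosome 1, 147756199 to 147773362, minus strand), connexin 40, was called higher at day 7.5 than at day 4.5 in WT. It was at 0 in all 5 WT libraries at day 1.5, had 0 to 6 counts per library at days 2.5 and 4.5, and 13, 7 and 19 counts (6.67, 4.89 and 12.3 CPM) at day 7.5. Day 7.5 did not overlap day 4.5 in WT (8.89% of all genes did not), and the step was called (log2 fold change 2.81, SE 0.78, edgeR adjusted p 0.0391). In the genotype arm, levels above 3.47 CPM were found only at day 7.5. GJA5 thus passed the filter on low counts only through the day at which it was high, and the call is given as a description. The call did not hold under DESeq2, without the filter on low counts, or without any 1 of 8 of the 9 libraries, with adjusted p up to 0.282 (without WT_TU_R2 at day 7.5). The step from day 1.5 to day 2.5 was called too (edgeR adjusted p 0.00709), but set against the floor no fold above 1 could be given. KO libraries held 8.46, 1.73 and 9.29 CPM at day 7.5, overlapping WT. In KO at day 4.5 only cl14_R1 had any, with 2 counts. UT libraries had 3.57, 4.47 and 5.19 CPM at day 7.5 and 0 to 2.09 CPM at day 4.5, without overlap (27.7% of all genes did not overlap). GJA5 did not pass the filter in this arm, so no test was made. Its HAse1.5 values of 0.815, 2.88 and 2.79 CPM at day 7.5 all lay below UT, as did 6.9% of all genes, while the HAse2.5 values were 6.92, 1.34 and 16.4 CPM. At day 2.5 the HAse1.5 libraries held 15, 0 and 7 counts against 2, 0 and 4 in UT.

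KCNAB1 (ENSG00000169282, chromosome 3, 156037701 to 156539138, plus strand), the potassium channel beta subunit, was a gene of 1 day in WT. It was at 0 in all 5 WT libraries at day 1.5, and WT libraries held 45, 25, 13, 6, 13 and 20 counts at day 2.5 (4.19 to 16.5 CPM, median 8.49). It was at 0 again in all 6 libraries at day 4.5 and in all 3 at day 7.5. The rise to day 2.5 was at least 7.05-fold (edgeR adjusted p 2.21e-06). In both arms KCNAB1 passed the filter on low counts only with its libraries of day 2.5, where it was high. The p-values of this rise and of the UT fall given below are therefore descriptions. The fall to day 4.5, at least 5.66-fold, is a description, since the zeros of that day helped to pick the gene. UT libraries, which the choice did not use, had 15, 9 and 13 counts at day 2.5 and 1, 0 and 0 at day 4.5, a ratio of 0.0326 (counting interval 0.000804 to 0.193, edgeR adjusted p 0.016). That call was lost without UT replicate 2 or 3 of day 4.5 (0.0622 and 0.0685). The genes most like it over 65 libraries were CIROP (r = 0.87), HHIPL2 (0.86) and KRT19 (0.85), which were likewise highest at day 2.5 by group median in WT: 9.80, 13.2 and 1083 CPM, against 0, 0.614 and 200 CPM at day 4.5. These genes were chosen by their likeness over the same libraries, so a shared peak is partly built in.

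In KO cardioids KCNAB1 overlapped WT at day 2.5 and was still counted at day 4.5. KO libraries held 4, 7, 19, 20, 19 and 8 counts at day 2.5 (4.46 to 12.1 CPM). The log2 fold change was −0.24 with a 95% interval of −1.26 to 0.78 (edgeR adjusted p 0.871). At day 4.5, where the gene was chosen, cl4_R1, cl4_R2, cl4_R3, cl14_R1, cl46_R1 and cl51_R1 held 5, 1, 14, 4, 4 and 6 counts (0.611 to 9.40 CPM, median 2.69), against 0 in every WT library. That is at least 2.20-fold higher by the mean set against the floor, with 14 of the 34 counts in cl4_R3. At day 7.5 the KO libraries had 2, 0 and 1 counts, at the floor. Of the genes most like KCNAB1, HHIPL2 had a median of 2.49 CPM and KRT19 of 300.3 CPM in KO at day 4.5, and CIROP of 0.336 CPM. The KO libraries of day 4.5 were among those used to choose these genes, so nothing is read from their levels.

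HAse1.5 libraries also held KCNAB1 at day 4.5, in 2 of 3 lines. TNNI1, WT and TNNT2 had 16, 0 and 8 counts (9.93, 0 and 4.66 CPM) against 1, 0 and 0 in UT, a ratio of 21.6 (counting interval 3.51 to 886) that did not pass the test (edgeR adjusted p 0.162). The line with most KCNAB1, TNNI1, had the lowest sum of cardiomyocyte markers (5175 CPM), and the line with none, WT, the highest (19546 CPM). The part of cardiomyocyte content in the result was not tested. HAse2.5 libraries had 3, 0 and 0 counts, at the floor. At day 2.5 HAse1.5 libraries held 3, 5 and 12 counts (log2 fold change −0.77, 95% interval −2.65 to 1.11, edgeR adjusted p 0.948).

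POPDC2 (ENSG00000121577, chromosome 3, 119636457 to 119665324, minus strand), the Popeye protein gene, was the 1 member called in the enzyme comparisons. It overlaps COX17 on the same strand, whose median was 76.2 CPM over all libraries, and reads in the shared stretch could be given to either gene. WT libraries held 0 to 4.59 CPM at day 2.5 (median 1.07, n = 6), 19.8 to 61.4 CPM at day 4.5 (median 55.6, n = 6) and 116, 121 and 103 CPM at day 7.5. The WT rise from day 2.5 to day 4.5 was 5.34 on the log2 scale and that from day 4.5 to day 7.5 was 1.18, both without overlap and both given as descriptions. In UT, which the choice did not use, the rise to day 4.5 was 4.73 (SE 0.74, edgeR adjusted p 0.000116).

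POPDC2 was below WT in every KO library of days 4.5 and 7.5. At day 4.5, where the gene was chosen, KO libraries held 17.3, 7.94, 4.70, 9.97, 0.539 and 2.90 CPM in cl4_R1, cl4_R2, cl4_R3, cl14_R1, cl46_R1 and cl51_R1, all below the lowest WT library (cl43_WT_UT, 19.8 CPM). The log2 fold change was −2.85, and −2.75 with the block as a term. Clones cl46 and cl51, which held the lowest values here, had no library at day 7.5. At day 7.5 KO libraries held 67.0, 62.2 and 51.8 CPM, again all below WT, and the log2 fold change was −0.94 (SE 0.59, 95% interval −2.14 to 0.25, edgeR adjusted p 1). In a fit of only these 6 libraries it passed (adjusted p 0.0103), and with the block it was −0.63 (adjusted p 0.864). At day 7.5, 0 of 7 genes were called (0.348% of all genes were, and 5.53% had an unadjusted p under 0.05, with 61 genes called by DESeq2). HCN4, KCNH2, KCNQ1 and POPDC2 did not overlap between the groups, all lower in KO, against 7.72% of all genes that were lower without overlap. At day 1.5, 0 of 7 genes and 0% of all genes were called (4.28% at an unadjusted p under 0.05, and 0 by DESeq2). At day 4.5 KCNAB1 and POPDC2 did not overlap between the groups, nor did 2.44% of all genes. Since the list was chosen on this day, nothing is read from that count.

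Hyaluronidase lowered POPDC2 in each enzyme group of day 4.5 and in HAse1.5 at day 7.5. At day 4.5 UT libraries held 91.4, 29.3 and 22.3 CPM, HAse1.5 libraries 4.34, 0.864 and 1.16 CPM, and HAse2.5 libraries 7.19, 1.56 and 3.85 CPM in TNNI1, WT and TNNT2. Every treated library lay below every UT library, and TNNI1 was highest in all 3 groups. The log2 fold change was −4.48 for HAse1.5 (SE 0.72, 22.3-fold lower, edgeR adjusted p 0.00105) and −3.52 for HAse2.5 (SE 0.66, 11.4-fold lower, adjusted p 0.0228). POPDC2 was the 1 gene of the 5 tested that was called in either comparison, where 3.48% and 0.22% of all genes were. The HAse2.5 call was lost without UT replicate 1 (adjusted p 0.12), without any 1 HAse2.5 library (0.0715 to 0.171) and in a fit of these 6 libraries alone (0.0863), with a direction that was kept. The HAse1.5 and HAse2.5 comparisons share their UT libraries. Set directly against each other, HAse1.5 and HAse2.5 differed by −0.96 (95% interval −2.85 to 0.93, edgeR adjusted p 0.889), and 0 of 5 genes were called (0.361% of all genes, 9.65% at an unadjusted p under 0.05 and 160 genes by DESeq2).

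At day 7.5 UT libraries held 72.3, 136 and 114 CPM, HAse1.5 libraries 18.7, 18.7 and 26.5 CPM, and HAse2.5 libraries 42.2, 33.6 and 30.1 CPM. All treated libraries again lay below all UT libraries (6.9% of all genes did so in HAse1.5 and 7.37% in HAse2.5), and HAse1.5 lay below HAse2.5 (4.7%). The log2 fold change was −2.44 for HAse1.5 (SE 0.55, edgeR adjusted p 0.0142), the 1 call among 5 genes where 3.33% of all genes were called. It was lost without HAse1.5 replicate 1 (adjusted p 0.0872) or replicate 2 (0.0706). For HAse2.5 it was −1.66 (SE 0.52, edgeR adjusted p 0.169), not called, as for the other 4 genes (0.659% of all genes were called, 13.5% at an unadjusted p under 0.05, and 187 genes by DESeq2). Without the filter on low counts that difference passed (adjusted p 0.000398). The HAse1.5 and HAse2.5 libraries differed by −0.78 (95% interval −1.92 to 0.36, edgeR adjusted p 0.963), with 0 of 5 genes called (0.00784% of all genes, 5.64% at an unadjusted p under 0.05 and 39 genes by DESeq2). The effect of the enzyme was nearer 0 at day 7.5 than at day 4.5, by 2.04 for HAse1.5 (SE 0.92, edgeR adjusted p 0.577) and 1.86 for HAse2.5 (SE 0.84, adjusted p 0.902), so this narrowing was not called (0.0157% and 0% of all genes were, 8.28% and 4.78% at an unadjusted p under 0.05, and 48 and 1 genes by DESeq2). At day 2.5 POPDC2 was at 0 in all 3 HAse1.5 libraries and in 2 of 3 UT libraries. Of the 5 genes tested at that day 0 were called (1.15% of all genes, 9.22% at an unadjusted p under 0.05, and 241 genes by DESeq2).

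**Figure D3:**
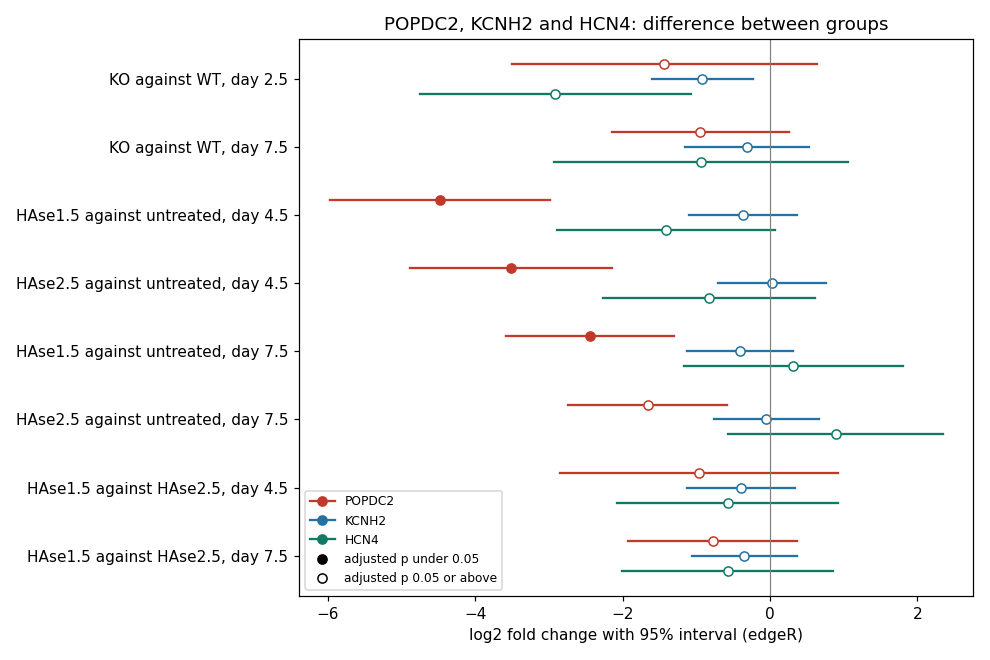
Difference between groups (log2 fold change with its 95% interval, edgeR) for POPDC2, KCNH2 and HCN4 in 8 comparisons. POPDC2 is called, with filled symbols, at −4.48, −3.52 and −2.44 in the enzyme arm, while the intervals of KCNH2 there include 0.

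Beside POPDC2, cardiomyocyte markers were lower too at day 4.5, though not in every comparison. In whole cardioids, fewer cells of a type and less RNA per cell cannot be told apart. At day 4.5 the 10 markers summed to 33140 to 63060 CPM in WT and 16293 to 43715 in KO. In KO 5 of the 10 were called lower, where 3.74% of all genes were called in either direction. In HAse1.5, 9 of the 10 were called lower (3.48% of all genes called), and in HAse2.5 at the same day 0 of 10 (0.22%). With so few calls, 0 of 10 does not show unchanged markers. MYL7 was at most 633 CPM in HAse2.5 against at least 1409 in UT, while the sum of the 10 overlapped (18869 to 33707 and 25851 to 50752 CPM). Per 10000 marker counts, a ratio chosen after the data had been seen, POPDC2 had 8.61 to 18.0 counts in UT, 0.442 to 8.39 in HAse1.5 and 0.567 to 2.13 in HAse2.5, again with no treated library above the lowest UT library. The highest HAse1.5 value was that of TNNI1 (8.39), with 0.442 and 1.30 in WT and TNNT2. In the genotype arm it had 5.52 to 15.9 counts in WT and 0.293 to 4.37 in KO at day 4.5, and 14.5 to 18.5 and 8.71 to 10.2 at day 7.5. At day 7.5 UT had 9.99 to 20.4, HAse1.5 5.47 to 7.53 and HAse2.5 6.38 to 8.26. The marker sums of day 7.5 overlapped between WT (62629 to 70866 CPM) and KO (59442 to 67202). They were 66512 to 74652 CPM in UT, 31253 to 35178 in HAse1.5 and 40604 to 65475 in HAse2.5. In the ratio to marker counts every treated library, and every KO library of day 7.5, lay below its controls. The share of all genes that do so was not computed. The day 4.5 values of WT and KO come from the comparison that picked POPDC2, and nothing is read from them.

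The genes most like POPDC2 over 65 libraries were the myosin light and heavy chain genes MYL3 (r = 0.94), MYL7 (0.94) and MYH7B (0.94), and within days 4.5 and 7.5 the values were 0.92, 0.95 and 0.91. MYL7 is itself 1 of the 10 markers and also stands in the atrial and inflow list (NR2F1, NR2F2, MYL7, KCNA5, SLN, SHOX2 and TBX18). That list summed to 1734 to 5483 CPM in WT and 244 to 852 CPM in KO at day 4.5, and to 1464 to 4723 CPM in UT, 29.7 to 48.4 in HAse1.5 and 149 to 654 in HAse2.5. MYL7 makes up most of that sum (medians of 4325 and 372 CPM in WT and KO at day 4.5, and of 1590, 16.8 and 144 CPM in UT, HAse1.5 and HAse2.5). The lower sum in KO does not hold for every member of the list. NR2F2 held 6.84 to 29.7 CPM in WT and 45.2 to 97.5 CPM in KO at day 4.5. SLN, at low levels, was also higher in KO without overlap (0 to 2.52 and 3.05 to 4.63 CPM). NR2F1 and SHOX2 overlapped between WT and KO on that day. The part of both marker lists in the POPDC2 result was not tested. Among the 7 genes, POPDC2 correlated with KCNH2 at r = 0.74 and with HCN4 at 0.71 over 65 libraries, and with KCNAB1 at −0.49. These libraries share their days of collection.

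**Figure D4:**
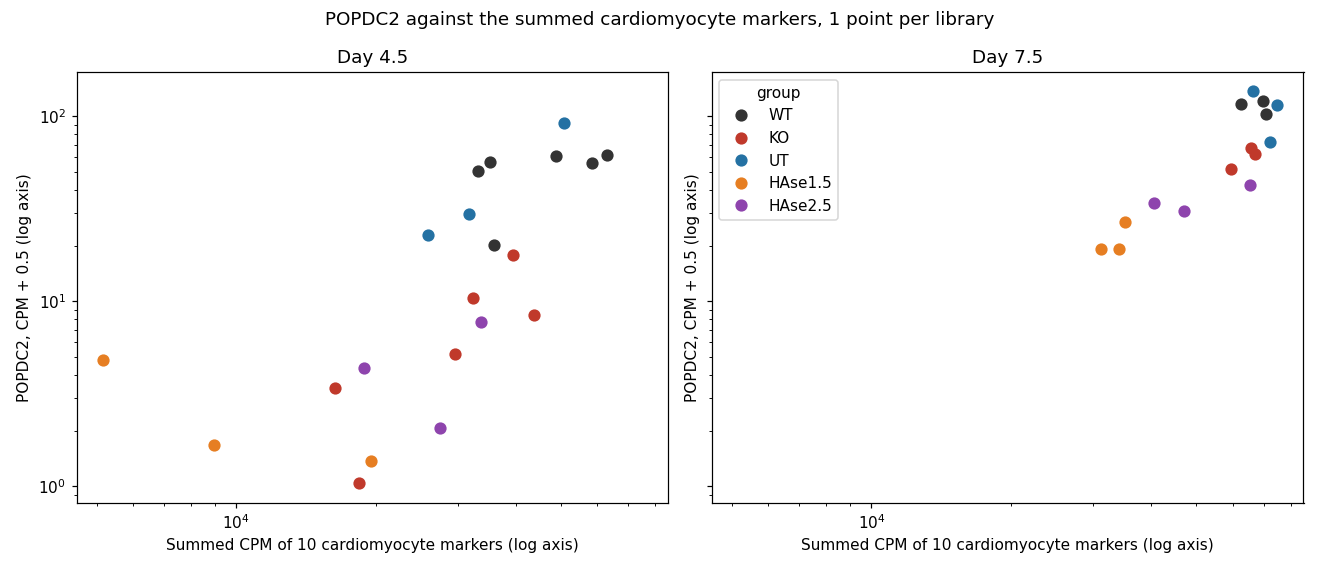
POPDC2 (CPM + 0.5, log axis) against the summed CPM of 10 cardiomyocyte markers (log axis) at days 4.5 and 7.5, 1 point per library, coloured by group. At day 4.5 HAse2.5 libraries have marker sums of 18869 to 33707 CPM, with 2 of 3 inside the UT range, and POPDC2 levels of 1.56 to 7.19 CPM, below all UT libraries.

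The wider machinery was read from 5 lists with 65 genes: pacemaker, calcium and sodium channels, potassium channel pores, their auxiliary subunits, connexins and Popeye proteins, and transcription factors of pacemaker and conduction tissue. Of these 45 passed the filter in the genotype arm and 44 in the enzyme arm. From day 2.5 to day 4.5 in WT, 21 of 45 rose and 5 fell (median log2 fold change 0.64, against 0.03 over all genes, of which 34.5% were called). The sodium-calcium exchanger SLC8A1 rose by 8.62, the intercalated disc gene XIRP1 by 8.29, and GJA1 (connexin 43) fell by 4.31 on the log2 scale. In UT, 17 of 44 rose and 1, GJA1, fell (by 3.43), where 23% of all genes were called. From day 1.5 to day 2.5 in WT, 17 rose and 4 fell (30.1% of all genes were called), with the T-box factors TBX5 at 30.2 CPM (0 at day 1.5, at least 23.6-fold) and TBX2 at 29.8 CPM (0.120 at day 1.5) among the risen, and KCNJ5, the partner subunit of KCNJ3, among the fallen (by 5.66). From day 4.5 to day 7.5 in WT, 3 rose (HEY2 by 1.81, KCNQ5 by 0.93 and ETV1 by 0.86) and 2 fell, among them KCNIP2, a subunit of the transient outward current (by 2.35), where 2.7% of all genes were called.

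Between KO and WT at day 2.5, 1 of 45 fell (TBX5, log2 fold change −2.06, SE 0.35, edgeR adjusted p 0.00163) and none rose, where 0.993% of all genes were called. At day 4.5, 4 rose and 5 fell (median −0.08, against −0.03 over all genes, of which 3.74% were called). KCNK1, ISL1 (a factor of cardiac progenitors) and CACNA1D (a pacemaker calcium channel) were higher by 1.68, 1.40 and 1.05, and IRX4 (a ventricular factor), XIRP1 and KCNJ5 were lower, at −2.76, −1.89 and −1.68. These folds hold no term for the block. In WT, ISL1 held 13.3 to 18.1 CPM in block A and 57.8 to 112.7 in block C, which held other line names. CACNA1D held 52.5 to 59.4 and 153 to 180 CPM, and KCNJ5 48.4 to 56.1 and 13.8 to 24.3. The 4 KO libraries of block C held 112.8 to 197, 150 to 342 and 5.21 to 15.4 CPM, overlapping WT for CACNA1D and KCNJ5. In blocks A and B the KO library lay beyond the WT values, in the direction of the fold. At day 7.5, 0 of 45 were called by edgeR (6 at an unadjusted p under 0.05), where 0.348% of all genes were, and DESeq2 called 61 genes in all. With HAse1.5 at day 2.5, TRPM4 and ETV1 rose (1.959 and 1.43) and TBX5 and TBX2 fell (−3.74 and −2.53), of 44 tested, where 1.15% of all genes were called. At day 4.5, 3 of 44 rose (ISL1 by 2.07, IRX5 by 1.72 and IRX3 by 1.30) and 8 fell, with the calcium channel subunit CACNB2 (−3.64), SLC8A1 (−3.40) and XIRP1 (−2.45) changed most. The median was −0.25, against 0.02 over all genes, of which 3.48% were called. HAse2.5 at day 4.5 changed 0 of 44 by edgeR (7 at an unadjusted p under 0.05), where 0.22% of all genes were called, and DESeq2 called 86 genes in all. At day 7.5 HAse1.5 raised ISL1 (2.61) and IRX5 (2.00) and lowered CACNB2 (−2.21), CACNA1C (−1.44) and TBX5 (−1.39), and HAse2.5 raised IRX5 (1.86), where 3.33% and 0.659% of all genes were called. The lists were chosen with earlier results known.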

How the data were processed

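RNA of pooled cardioids was read from the 3′ end in 65 libraries. The deposited values are whole-number counts per gene, which the authors made with featureCounts (Subread 1.6.2) on hg38/GRCh38, per the submitters' processing notes. The aligner, strand setting and handling of multiply mapped reads are not given in the sources used here. The table holds 4 columns of no listed sample, which were not used. Here counts were turned into CPM and tested by arm with edgeR 4.0.16 (quasi-likelihood, TMM, filterByExpr minimum 10, one model over the 8 groups of the arm, Benjamini-Hochberg adjusted p under 0.05) in R 4.3.3, with limma 3.58.1. DESeq2 1.42.0, no filter, a block, summed lines, fits of only the groups compared and leaving out each library were the alternatives. The tests ran on 13797 genes in the genotype arm and 12748 in the enzyme arm, and the script was tested on simulated data. Likeness is Pearson's r of log2 CPM with a prior count of 2, and the 3 highest genes were named. From each list the genes with the largest called changes were named, at most 3 in each direction. POPDC1 was matched as BVES. The members and lists were chosen with earlier results of these data known. Enzyme arm replicate numbers mark the same cell line, which pairs the samples: 15 of 21 same-line pairs had a correlation of deviations above 0.1 (−0.11 to 0.46), against 5 of 42 other pairs. In the genotype arm 27 of 37 pairs of the same line or block were above 0.1 (−0.07 to 0.81), against 7 of 74 other pairs. The main tests held no term for line or block, so their p-values treat such libraries as independent. Replicates differed by more than sampling noise in all 115 pairs (chi-square over degrees of freedom 2.10 to 81.5). Promoter windows came from RefSeq (GRCh38.p14), and gene positions from GENCODE 29.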

Additional observations from a re-analysis of the deposited data

Results flagged for a closer look

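Each member in each group of 5 or 6 libraries, where at least 1 library had more than 3 counts, was searched for a library whose gap to the next value was large against the range (Dixon's test). Of 28 such sets, 9 had one. Chance gives about 5% in normally distributed values, which CPM made from 0 to a few counts are not. HCN4 stood at 76.0 CPM in WT_R1 at day 2.5 (next 32.4 CPM) and at 13.5 CPM in cl4_R1 at day 1.5 (next 1.66), both of block A. KCNJ3 stood at 9.63 CPM in cl4_R1 at day 2.5 (next 2.22) and at 8.11 CPM in cl51_R1 at day 4.5 (next 2.03). GJA5 reached 3.47 CPM in TNT2 at day 4.5 (next 1.25), and KCNAB1 9.40 CPM in cl4_R3 at day 4.5 (next 3.47). POPDC2 stood at 4.59 CPM in cl43_WT_UT at day 2.5 (next 1.43), at 2.53 CPM in cl4_R3 at day 1.5 (next 0.616), and lowest, at 19.8 CPM, in cl43_WT_UT at day 4.5 (next 50.0).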

How the results depend on the processing

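The number of members called changed as follows, and the cause was not tested. Fits of only the groups compared called 1 member for KO against WT at day 2.5 (HCN4, main 0) and 1 at day 7.5 (POPDC2, main 0). They called 3 for WT from day 2.5 to 4.5 (main 6, without KCNQ1, KCNJ3 and KCNAB1), 0 for WT from day 4.5 to 7.5 (main 1) and 0 for HAse2.5 at day 4.5 (main 1). For WT from day 4.5 to 7.5, DESeq2, no filter and counts summed per line each called 0. With no filter, HAse2.5 at day 7.5 and untreated day 7.5 against 4.5 each called 1 (POPDC2, main 0). Leaving out 1 library gave 2 to 4 members for KO at day 4.5, 5 to 6 for WT from day 2.5 to 4.5, and 0 to 1 for WT from day 4.5 to 7.5, HAse2.5 at day 4.5, HAse1.5 at day 7.5 and untreated day 7.5 against 4.5. The comparison of KO with WT at day 4.5 picked KCNAB1 and POPDC2, so no count of members called is given for it. The 6 members for WT from day 2.5 to 4.5 include KCNAB1 and POPDC2, which were picked partly on the WT libraries of day 4.5. Nothing is read from their part in those counts.

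Some log2 fold changes near 0 changed sign, none called. With the library-number block HCN4 at day 7.5 in KO was 0.24. Over fits that left out 1 library, KCNAB1 in KO at day 2.5 ran from −0.41 to 0.037, KCNH2 in HAse1.5 from −0.58 to 0.034 at day 4.5 and from −0.58 to 0.0085 at day 7.5, KCNH2 in HAse2.5 from −0.22 to 0.43 at day 4.5 and from −0.23 to 0.36 at day 7.5, and HCN4 in HAse1.5 at day 7.5 from −0.14 to 1.71.

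With the cell line as a replicate block, no call of a member changed: POPDC2 was −4.41 (edgeR adjusted p 0.000445) and −3.42 (0.0113) at day 4.5 in HAse1.5 and HAse2.5, and −2.503 (0.00476) and −1.78 (0.0801) at day 7.5. Over all genes, KO at day 4.5 had 516 calls, 254 with no filter, 286 with summed lines, 212 with only the groups compared and 782 by DESeq2. HAse2.5 at day 4.5 had 28 calls, 55 with the replicate block, 165 with no filter, 201 with only the groups compared and 86 by DESeq2. KCNQ1, KCNJ3, GJA5 and KCNAB1 reached at most 45 counts in a library, which limits their precision.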
